A study of Drosophila melanogaster with 19 samples.

Results

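The 200 probes described here were the most body-enriched ones of a Drosophila melanogaster microarray series, that is, those whose signal in the rest of the fly exceeded that in the gut by the largest factor. They were chosen by a measured value, the mean log2 rest signal minus the mean log2 gut signal on the 6 arrays of c564>Pdm2-RB flies, among probes with a mean linear rest signal above 130 on those arrays. Of 32162 probes on the array, 15989 passed that threshold. One antimicrobial peptide probe among the highest ranked, dro4, was left out by name. The rule also bars hemocyte, prophenoloxidase, Cpr and Lcp genes by name, but no probe so named ranked high enough to be removed. Probes without a gene symbol could not be barred by name. The 6 arrays that chose the probes are therefore given as description only, and the tests of the comparisons below used the 13 arrays of the other genotypes, except where a model of all 6 groups is named.

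The series had 19 one-color Agilent arrays in 6 groups. All flies were females taken at 10 days of age, kept at 25 °C in populations of both sexes and dissected in pools into the gut and the rest, which is the fly without gut and head. Every genotype carried the c564-Gal4 driver in a w1118 background. This driver is active in fat body and midgut among other tissues, so overexpression was not confined to 1 cell type. The c564>nub-RB flies (w1118;UAS-nub-RB/c564-Gal4) overexpressed the RB transcript of nubbin, which encodes a POU/homeodomain transcription factor, and gave 4 rest and 3 gut arrays. The c564>Pdm2-RB flies (w1118;UAS-Pdm2-RB/c564-Gal4) overexpressed the RB transcript of its paralog pdm2 and gave 3 arrays of each tissue. The control, c564>+ (w1118;c564-Gal4/+, written c546-Gal4/+ in its sample labels), carried the driver without a UAS transgene and gave 3 arrays of each tissue. Signals are linear normalized intensities and are given in the order of the replicate numbers, 1, 3 and 4 for c564>+, 1 to 4 for c564>nub-RB rest, 1, 3a and 4 for c564>nub-RB gut, and 1, 2 and 4 for c564>Pdm2-RB.

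A carcass without gut and head holds flight, leg and body wall muscle, fat body, cuticle and epidermis, the thoracic and abdominal ganglion, hemocytes and, in a female, the ovaries and the reproductive tract. Flight muscle is built from sarcomeres whose thick filaments hold myosin, paramyosin and flightin and whose thin filaments hold actin and the troponin complex. Follicle cells of the ovary secrete the vitelline membrane and chorion around each egg, and fat body cells release storage and transport proteins into the hemolymph. None of these tissues was sampled separately, so a lower signal from fewer cells of a type and one from less RNA per cell cannot be told apart.

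On the c564>Pdm2-RB arrays the rest minus gut difference of the 200 probes ran from 9.94 on the log2 scale for fln to 3.72 for CG14406 at the last rank, with a median of 4.54. Just inside the limit were FBtr0071058 (3.72), GH21643 (3.72) and CG14406 (3.72). Just outside it were FBtr0075664 (3.72), M76765 (3.71) and FBtr0301491 (3.70), so the limit fell in a stretch without a gap. The 10 highest ranks were held by fln, Strn-Mlck (2 probes), FBtr0077440 (2 probes), Prm, TpnC4, Act88F, FBtr0113713 and FBtr0076574, of which the 5 named genes all encode muscle proteins. One probe was chosen through a single value: FBtr0074560, at rank 142, stood at 28059 on c564>Pdm2-RB rest 1 in the authors' normalized table but at 7.27 in the scanner signals of the same array, and the scanner signals of all 19 arrays lay between 2.22 and 14.3. Choosing from the scanner signals left 199 of the 200 probes in place.

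Gene symbols were available for 47 of the 200 probes (37 genes), and 153 had none. Of the 200, 174 carried a transcript identifier, and where no symbol is given the tables used here did not pair it with a gene. By identifier or symbol the probes fell into 169 units, of which 30 were measured by 2 or more of the probes. Named probes were not a random sample of the 200. Most of their symbols (32 of 47) came from a shortened copy of a table of the comparison of c564>nub-RB with c564>+, whose 996 rows used here were those with the highest c564>nub-RB to c564>+ ratio in rest, so counts among named probes lean towards genes that rose. Over the whole array 800 of the 1469 named probes took their symbol from these rows, so counts on the gene lists below lean the same way. The 36 named genes of the 200 probes with a placed locus lay on chromosome arms 3L (13), 3R (8), X (7), 2L (5) and 2R (3). Among them CG14852 and CG8087 on 3R, and CG15404 and CG31698 on 2L, were direct neighbours, with 0 annotated genes in between.

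In the series as a whole no spot was saturated, and 6 slides were scanned in 2 batches, with all 3 c564>nub-RB gut arrays in the first. Gut-specific genes were checked with a list of digestive proteases, amylases and related genes (30 named probes outside the 200). Their summed signal was 6318248 to 7255954 on the gut arrays, against 598381 to 1619186 in c564>+ rest, 4596 to 593808 in c564>nub-RB rest and 5183 to 110146 in c564>Pdm2-RB rest. Rest arrays thus differed in gut gene signal within and between genotypes, most so in c564>nub-RB, where replicates 1 and 4 stood at 572474 and 593808 and replicates 2 and 3 at 4596 and 15192. The probe of nub with the highest signal read 56.6 to 99.6 in c564>nub-RB rest and 54.6 to 127 in c564>+ rest, and 7579 to 11087 against 5612 to 10226 in gut (log2 difference 0.23, adjusted p = 0.706, limma). The other 4 nub probes were higher on every c564>nub-RB rest array than on every c564>+ rest array, 31.3 to 42.0 against 3.98 to 13.9 for 1 of them, all below the signal threshold. In gut, too, some of these were higher on every c564>nub-RB array, at 114 to 259 against 31.8 to 53.1 for 1 probe (log2 1.91, adjusted p = 0.0699, limma) and 143 to 331 against 44.7 to 88.7 for another (1.64, adjusted p = 0.124), and none was called. No probe was named pdm2.

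Rest and gut were then compared in the genotypes that had no part in the choice. In c564>+ flies, 189 of the 200 probes were higher in rest by their means, with a median log2 difference of 4.65 (quartiles 3.77 and 6.33). Of the 175 probes with a mean signal above 130 in at least 1 of the tissues, 131 were called higher in rest and 0 lower (limma, 3 arrays per tissue, Benjamini-Hochberg over all 17515 tested probes at a false discovery rate of 1%), where 36.1% of all tested probes were called higher. Only 69 of the 175 passed the threshold in both tissues, and 37 of those were called. The 36.1% covers all tested probes, not only those above the threshold in both tissues. In 166 of the 175, every rest array was above every gut array, against 47.0% of all tested probes, although 105 of the 175 had passed the threshold through rest alone, which favors this order. Among the 69 above it in both tissues the count was 61, against 48.1% of all such probes. The 25 untested probes were below 130 in both tissues of c564>+.

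The picture in c564>nub-RB was close to this, with 199 of 200 means higher in rest and the same median of 4.65. Of 192 tested probes, 147 were called higher in rest and 0 lower, where 35.7% of all tested probes were called higher (limma, 4 rest and 3 gut arrays). Of the 74 probes above the threshold in both tissues 42 were called, and the 35.7% again covers all tested probes. Rest and gut arrays did not overlap for 189 of the 192 probes, against 45.8% of all tested probes, with 118 of the 192 above the threshold in rest alone. Among the 74 above it in both tissues the count was 71, against 46.4% of all such probes. Within scan batches, the median log2 difference of the 175 tested members in c564>+ was 5.48 on the first scan, which held 1 rest array. On the second scan, which held 1 gut array, it was 3.58. For c564>nub-RB only the first scan held both tissues, with 1 rest array, and the median of the 192 tested members was 4.95. Since each of these fits rests on a lone array of 1 tissue, no calls are given for them. With scan as a block, 104 members were called higher in c564>nub-RB, where 1480 of all 17371 tested probes were.

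**Figure D1:**
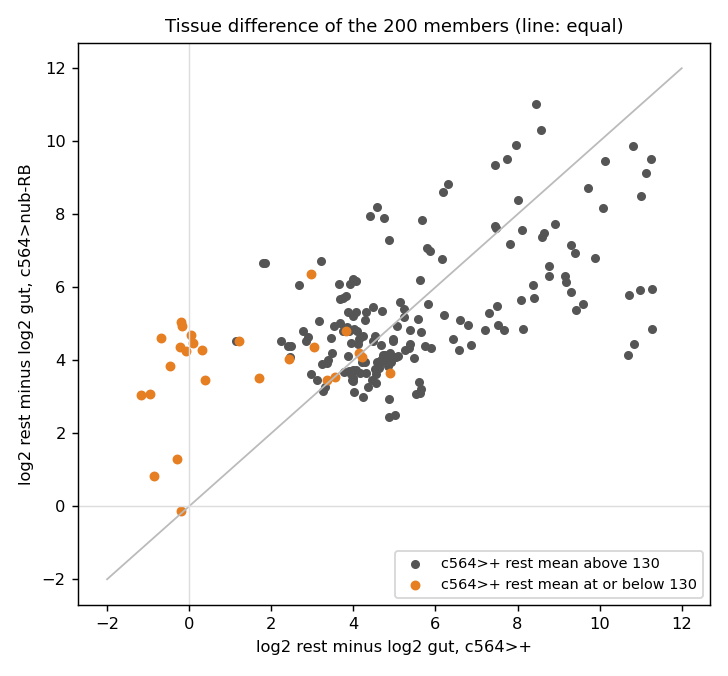
Log2 rest minus log2 gut signal of each of the 200 probes in c564>+ (x axis, means of 3 arrays per tissue) and in c564>nub-RB (y axis, 4 rest and 3 gut arrays), with a diagonal where both are equal. Most points lie above 3 on both axes (169 of 200 in c564>+ and 194 of 200 in c564>nub-RB), while a band of probes with a c564>+ rest mean at or below 130 (orange) lies near 0 in c564>+ and mostly higher in c564>nub-RB.

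Some probes were not body-enriched in the control. The 5 smallest c564>+ rest minus gut differences were -1.17 for CG13135, -0.95 for CG10918, -0.85 for CG8087, -0.70 for CG32551 and -0.46 for an unnamed probe, all with a mean c564>+ rest signal under 130. In c564>nub-RB the smallest were -0.13 for the probe at rank 142, 0.84 for CG8087, 1.30 for the second CG13135 probe, and 2.43 and 2.49 for both probes of RT01034, which stood at 4.88 and 5.0 in c564>+. The RT01034 probes read 111 to 143 on c564>nub-RB gut arrays 3a and 4, and 14.6 and 16.3 on gut array 1.

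Levels of the 200 probes were far more even in rest than in gut. Their median log2 signal on a rest array was between 9.77 and 10.63 over all 10 arrays, and 167 to 194 of them were above 130. On the 9 gut arrays the median was between 3.68 and 7.06, with 22 to 101 above 130. The median range between replicate arrays of a group was 2.19 (c564>+), 2.21 (c564>nub-RB) and 2.93 (c564>Pdm2-RB) on the log2 scale in gut, against 0.55, 0.96 and 0.89 in rest. Over all probes above 130 the same range was 0.36 to 0.47 in gut, but most of the 200 were at or below 130 there (117 to 130 of them in each genotype), so these sets differ in level, and no test was made. One array stood highest in each genotype. Gut array 1 of c564>+ was the highest of its group for 132 of the 200, gut array 3a of c564>nub-RB for 113 and gut array 1 of c564>Pdm2-RB for 126.

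**Figure D2:**
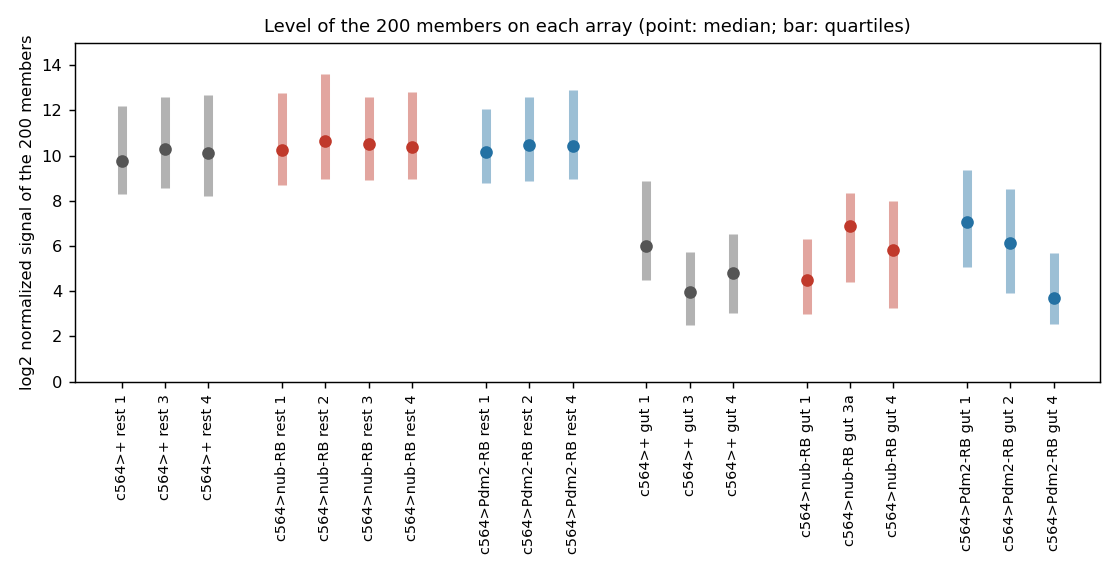
Median (point) and quartiles (bar) of the log2 normalized signal of the 200 probes on each of the 19 arrays, colored by genotype. Rest arrays lie between 9.77 and 10.63, while gut arrays of 1 genotype lie apart from each other, from 3.95 to 6.02 in c564>+, 4.47 to 6.89 in c564>nub-RB and 3.68 to 7.06 in c564>Pdm2-RB.

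Muscle genes led the ranking. Of a list of 36 muscle symbols, 6 had named probes (22 probes), and 6 of these probes, from 5 genes, were among the 200. All 6 were called higher in rest than in gut in both c564>+ and c564>nub-RB, where 36.1% and 35.7% of all tested probes were, but they passed the threshold through rest alone and had been chosen for low gut signal. The signal of fln, which encodes flightin, a thick filament protein of flight muscle, was 599, 4942 and 2220.0 in c564>+ rest, 8752, 19786, 6291 and 10379.7 in c564>nub-RB rest and 2398, 6153 and 6529 in c564>Pdm2-RB rest. In gut it was between 2.61 and 10.4 on all 9 arrays, and on none of them well above background. The rest signal was at least 204-fold that of gut in c564>+ (log2 8.44 ± 0.88 SE, adjusted p = 0.000368) and at least 1539-fold that of gut in c564>nub-RB (adjusted p = 4.39e-06).

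Prm, the gene of the thick filament core protein paramyosin, read 323, 2628 and 1401 in c564>+ rest and 3542, 12362, 4464 and 6347 in c564>nub-RB rest, and 1.85 to 13.8 in gut. TpnC4, a troponin C isoform of flight muscle, read 2187, 10275 and 7189 against 15861, 26419, 14322 and 22363. For Act88F, the actin of the indirect flight muscles, the values were 626, 3435 and 1829 against 16629, 43042, 8822 and 12669.8. In each of these the lowest c564>+ value came from replicate 1, and the c564>nub-RB arrays were all above the c564>+ arrays. Strn-Mlck, a giant protein of the titin and myosin light chain kinase family, had rest signals of 96.4, 867 and 358 in c564>+ and 1604, 2838, 1585 and 2400.4 in c564>nub-RB with 1 probe, and 2339, 4321 and 4216 and 5978, 16087, 10376 and 13984 with the other.

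None of these 6 probes passed the test of c564>nub-RB against c564>+ in rest. The log2 differences were 3.41 ± 0.70 SE for Act88F (adjusted p = 0.0217, limma), 2.72 ± 0.68 and 1.64 ± 0.38 for the probes of Strn-Mlck (adjusted p = 0.041 and 0.0324), 2.49 ± 0.74 for Prm (0.0674), 2.46 ± 0.71 for fln (0.0619) and 1.81 ± 0.52 for TpnC4 (0.0605). Every array of c564>nub-RB was above every array of c564>+ in all 6, with an SD of up to 1.59 among the control arrays. Of all tested probes 14.9% showed this order. Of the other 16 probes of the muscle list, outside the 200, 5 were above the threshold in rest, with a median difference of 1.39 and 0 called. Most of these 16 were further probes of Strn-Mlck with a low signal. The brightest, Mf and a further probe of Strn-Mlck, were about as high in gut as in rest of c564>+ (mean log2 13.06 and 12.48 in gut, 12.93 and 12.86 in rest), so low gut signal described the members chosen for it and not the whole list. Fhos, a formin that acts in sarcomere assembly, was named but on no list, and read 399, 1637 and 880.4 in c564>+ rest and 1711, 3782, 2116 and 3196 in c564>nub-RB rest (log2 1.63, adjusted p = 0.07).

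The unnamed probes of the 10 highest ranks followed 2 patterns. FBtr0077440 read 2669.9, 10426 and 8375 in c564>+ rest, 14649, 18823, 14689 and 24062 in c564>nub-RB rest and 11.3 to 34.6 on the 6 gut arrays of these genotypes, low in every gut array as the muscle genes were (rest difference between genotypes 1.52, adjusted p = 0.0715, limma). FBtr0076574 read 207599, 236267 and 327402 in c564>+ rest and 366604, 453745, 172678 and 53724 in c564>nub-RB rest, and 1481, 55.0 and 34.1 in c564>+ gut and 50.3, 1511 and 125 in c564>nub-RB gut. FBtr0113713 read 93807, 90308 and 106793 in c564>+ rest and 56632, 130805, 137935 and 107186 in c564>nub-RB rest, and 1070.3, 109 and 669 and 242, 2371 and 608 in gut. In both of these the highest gut arrays were c564>+ 1 and c564>nub-RB 3a, the arrays on which most of the 200 stood highest.

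Genes of the follicle cells showed where the gut arrays parted. The eggshell protein gene dec-1 (dec in the annotation) read 96283, 101263 and 155416 in c564>+ rest, 74168, 87164, 16941 and 23024 in c564>nub-RB rest and 19786, 21677 and 42497 in c564>Pdm2-RB rest. In gut it read 18548, 19.95 and 16.6 in c564>+ (replicates 1, 3 and 4), 11.7, 4068 and 6855 in c564>nub-RB (1, 3a and 4) and 7701, 8349.8 and 9.47 in c564>Pdm2-RB (1, 2 and 4). Each genotype thus had gut arrays with 4068 or more and others with 19.95 or less. For ndl, a follicle cell serine protease of the pathway that sets dorsoventral polarity, the gut values were 327, 2.25 and 2.22, then 2.06, 264 and 733, then 1342, 384 and 1.65, high on the same arrays. The eggshell gene yellow-g2, whose probe was not among the 200, had gut signals of 11970, 5 and 13 in c564>+, 7, 3762 and 2989 in c564>nub-RB and 11225, 11352 and 9 in c564>Pdm2-RB, again high on those arrays.

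The rest minus gut difference of dec-1 was 9.29 ± 2.76 SE in c564>+ (adjusted p = 0.0233, limma) and 5.86 ± 2.16 in c564>nub-RB (adjusted p = 0.0411), neither called at 1%. For ndl it was 9.44 ± 1.98 in c564>+ (adjusted p = 0.00603, called) and 5.38 ± 1.91 in c564>nub-RB (adjusted p = 0.0361, not called). How far eggshell transcripts on single gut arrays bear on the other probes of the 200 was not tested. Between genotypes in rest, dec-1 differed by -1.53 (adjusted p = 0.13) and ndl by -1.41 (adjusted p = 0.107). Ilp8 (CG14059), a relaxin-like insulin family peptide, read 16087, 22648 and 17762 in c564>+ rest and 35471, 33249, 45332 and 71898 in c564>nub-RB rest with 1 probe (log2 1.25, adjusted p = 0.0294) and differed by 1.21 with the other (adjusted p = 0.0607). Its c564>nub-RB gut signals were 312, 5774 and 5881 against 256, 351 and 338 in c564>+, high on 3a and 4 as for the eggshell genes, while c564>+ gut 1 was not.

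Lsp2, a hexamerin storage protein of the fat body, was the named member of the fat body list. It read 83.3, 380.5 and 69.6 in c564>+ rest, 4341, 17829, 1779.7 and 733 in c564>nub-RB rest and 4337, 3302 and 119 in c564>Pdm2-RB rest. Every c564>nub-RB array was above every c564>+ array, but the c564>nub-RB arrays lay far apart (SD 1.96 on the log2 scale, n = 4), and the difference of 4.61 ± 1.11 SE on the log2 scale was not called (adjusted p = 0.0369, limma). In gut Lsp2 read 52.8, 43.4 and 23.1 in c564>+ and 110.3, 37.8 and 7.22 in c564>nub-RB. The 16 other named probes of the fat body list summed to 66243 to 74630 in c564>+ rest and 229892 to 508615 in c564>nub-RB rest, and 5 of 13 tested were called higher, where 3.40% of all tested probes were. Since named probes lean towards rises in this comparison, that share is not a like baseline. In gut the same probes summed to 123989 to 199793 in c564>+ and 309152 to 358092 in c564>nub-RB, so in c564>+ the sum was higher in gut than in rest.

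**Figure D3:**
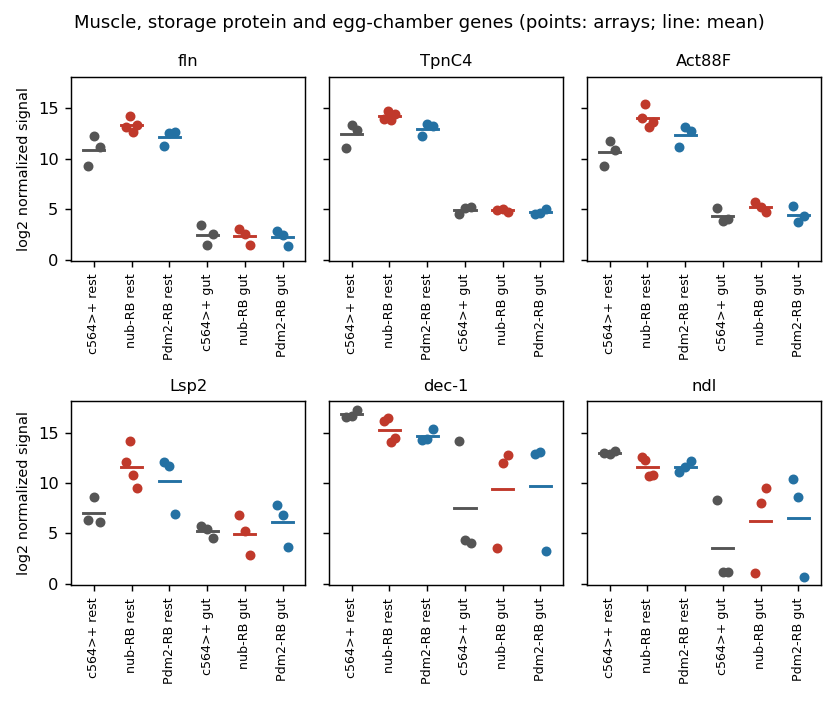
Log2 normalized signal of 4 muscle and fat body genes (fln, TpnC4, Act88F and Lsp2) and of 2 follicle cell genes (dec-1 and ndl) on every array (points), with the mean of each group (line), in rest and gut of c564>+ (grey), c564>nub-RB (red) and c564>Pdm2-RB (blue). The muscle genes shown, which were chosen for low gut signal, are low on all gut arrays, whereas dec-1 and ndl are high on 1 of 3 c564>+ gut arrays and on 2 of 3 in both other genotypes.

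Chaperone genes were represented by Hsc70-1 and Hsp20. Hsc70-1, a constitutive member of the Hsp70 chaperone family, had rest signals of 511, 992 and 809 in c564>+ and 1078, 2637, 1729 and 2317 in c564>nub-RB with 1 of its probes, and gut signals of 52.5, 53.7 and 71.4 and 48.4, 73.4 and 49.9. The gut arrays of both genotypes spanned similar ranges here, and rest was higher than gut by 3.66 (adjusted p = 0.000137, limma) in c564>+ and 5.03 (adjusted p = 2.33e-05) in c564>nub-RB. Between genotypes in rest the difference was 1.31 (adjusted p = 0.0516). A small heat shock protein gene, Hsp20, differed by 1.21 (adjusted p = 0.091). Noncoding RNAs with a name were the minor spliceosome RNA snRNA:U11 (rest difference 0.03, adjusted p = 0.972) and lncRNA:CR32027 (0.19, adjusted p = 0.38).

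Of the remaining named members, CG4962, CG6723, CG15617 and CG7203 had rest signals that were higher on every c564>nub-RB array than on every c564>+ array and were not called. This order held for 14.9% of all tested probes. These genes are grouped here for showing it, and CG4962 had passed the threshold through c564>nub-RB alone, which favors it. CG4962 read 47.6, 119 and 136 in c564>+ rest and 417, 989.5, 482 and 428 in c564>nub-RB rest (log2 2.56 ± 0.45 SE, adjusted p = 0.0128, limma), and in gut it read 487, 8.80 and 14.8 in c564>+ and 31.9, 38.4 and 10.697 in c564>nub-RB. Its c564>+ rest signal was thus below that of c564>+ gut array 1, and rest against gut was not called in c564>+ (adjusted p = 0.508). CG6723 (bumpel) read 96.6, 179.6 and 131 against 245, 511, 396 and 529.6 in rest (log2 1.61, adjusted p = 0.0198). CG15617 read 137, 539.6 and 296 against 870.4, 1615, 959.9 and 1026 (log2 1.95, adjusted p = 0.0318), with both genotypes between 40.6 and 64.9 in gut. CG7203 read 3013, 4535 and 6494 against 29698, 22413, 7258 and 11930.4 (log2 1.80, adjusted p = 0.059).

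The comparison of c564>nub-RB with c564>+ in rest asked what overexpression of nub-RB changed outside the gut. Of the 200 probes 193 were tested, and 22 were called at a false discovery rate of 1% (limma), 16 higher and 6 lower. Over all 16491 tested probes 3.40% were called higher and 0.910% lower. The median difference of the 200 was 0.26 on the log2 scale, with 129 of the 200 means higher in c564>nub-RB. Every c564>nub-RB array was above every c564>+ array for 64 of the 193 tested probes, against 14.9% of all tested probes, and below for 15 of the 193, against 17.3%. Of these 193, 19 had passed the threshold through c564>nub-RB alone, which favors the first order. Over all tested probes the median was -0.05. Of the 193 tested probes 173 were above the threshold in both genotypes, with 5 called higher and 6 lower, and 19 in c564>nub-RB only. The shares of 3.40% and 0.910% cover all tested probes, not only those above it in both genotypes. On the arrays of the second scan alone 11 were called, all among the 22, where 106 of all 16491 tested probes were. With scan as a block 26 were called, where 1084 of all tested probes were, the first scan holding 1 array of each genotype.

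In 26 of the 200 probes the mean c564>+ rest signal was 130 or lower, though the choice required a c564>Pdm2-RB rest mean above it. Of those 26, 7 were at or below it in both genotypes and not tested. The other 19 were tested through c564>nub-RB alone, a filter that favors rises. Among these 11 were called, all higher in c564>nub-RB, and the median difference of the 26 was 3.0. Of the 174 others 5 were called higher and 6 lower, and the median was 0.16. The c564>Pdm2-RB rest means were higher than c564>+ by a median of 3.81 in the 26, as the choice favors, and by 0.02 in the 174. The plot of genotype differences against control level shows these 26 probes at its left.

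**Figure D4:**
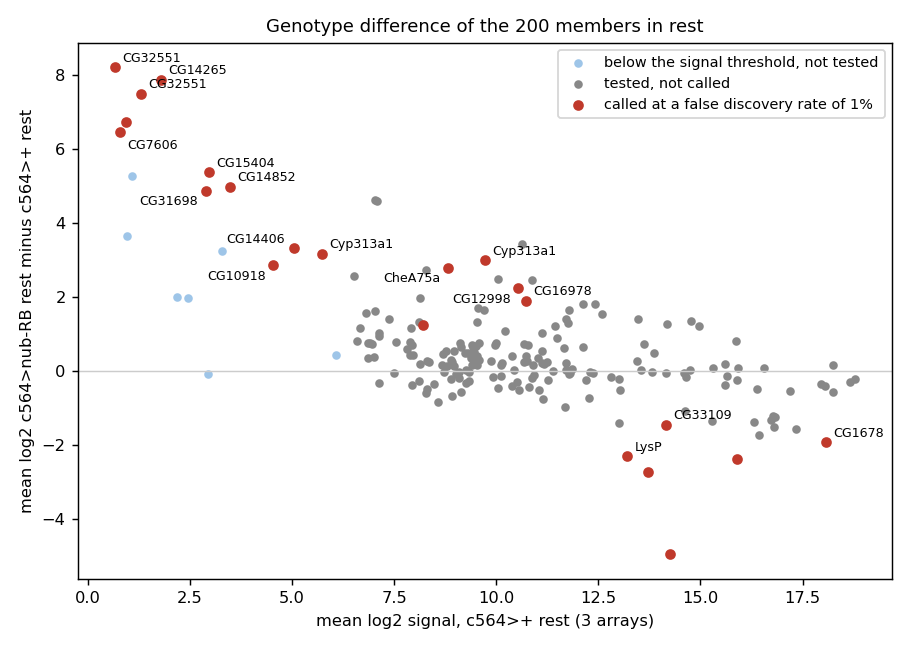
Mean log2 difference between c564>nub-RB rest (4 arrays) and c564>+ rest (3 arrays) for each of the 200 probes (y axis), against the mean log2 signal in c564>+ rest (x axis). Red points were called at a false discovery rate of 1% (22), grey points were tested and not called and blue points were not tested (7). The largest rises are of probes near background in c564>+, and the 6 called falls are of probes that were strongly expressed in c564>+.

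The gene with the largest rise was CG32551, which read 1.63, 1.67 and 1.49 on the c564>+ rest arrays and 337, 297, 714 and 689.7 on the c564>nub-RB rest arrays. No c564>+ array measured it well above background, so the rise was at least 62.9-fold (log2 difference 8.21 ± 0.34 SE, adjusted p = 3.18e-05, limma). A bound of this kind divides the mean of the brighter group by the lowest signal among all probes well above background on each array of the dimmer one, both as means of log2 values. The second probe of CG32551 read 1.56, 4.16 and 2.30 against 319, 285, 665 and 629, at least 58.9-fold (adjusted p = 0.00018). In c564>Pdm2-RB rest the first probe read 699, 1029 and 841, above all c564>+ arrays too. With normexp background correction, whose offset of 50 compresses low signals, the log2 difference was 2.40 for the first probe, 2.36 for the second, 3.07 for CG14265 and 1.80 for CG14852, all still called (limma). The other rises from a low control level also shrank, to between 1.09 and 1.81 for CG7606, CG15404, CG31698, CG10918 and CG14406, and the calls of CG7606 (1.30, adjusted p = 0.0137) and CG10918 (1.09, adjusted p = 0.0172) were lost.

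CG14265 read 3.30, 4.52 and 2.81 in c564>+ rest and 741, 482, 935 and 1298 in c564>nub-RB rest, a rise of at least 108-fold (log2 7.87 ± 0.34 SE, adjusted p = 3.59e-05, limma), and 693, 472 and 362 in c564>Pdm2-RB rest. For CG7606 the values were 1.74, 1.93 and 1.52 against 280.4, 211, 111 and 76.8, at least 20.002-fold (adjusted p = 0.00035), with 127, 59.6 and 570.0 in c564>Pdm2-RB. Replicates of each genotype did not overlap with the control in either gene. An unnamed probe of FBtr0343913, singled out after its values were seen, read 2.19, 1.80 and 1.79 against 233, 222, 184 and 175 (at least 26.9-fold, adjusted p = 1.79e-06), and 952, 807 and 2353 in c564>Pdm2-RB. It had the smallest adjusted p of the 200 in this comparison. A second probe of this transcript, at 104, 92.2, 68.7 and 67.2 in c564>nub-RB rest, was below the threshold and not tested.

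The neighbours CG15404 and CG31698 on 2L rose together. CG15404 read 5.62, 9.98 and 8.56 in c564>+ rest, 388, 618, 211 and 210.5 in c564>nub-RB rest and 107.3, 30.7 and 521 in c564>Pdm2-RB rest, and the log2 difference of c564>nub-RB from c564>+ was 5.36 ± 0.42 SE (adjusted p = 0.000621, limma). CG31698 read 10.1, 6.27 and 6.29, then 268, 359.9, 145 and 153, then 79.6, 31.0 and 344, with a difference of 4.87 ± 0.36 (adjusted p = 0.000511). In both genes replicate 2 was the highest c564>nub-RB array, and replicate 2 was the lowest c564>Pdm2-RB array. The pair on 3R went apart in size. CG14852 read 13.7, 11.1 and 9.35 in c564>+ rest, 421, 249.99, 281 and 518 in c564>nub-RB rest (31.3-fold, log2 4.97 ± 0.28, adjusted p = 0.000149) and 4354, 7259.8 and 3279 in c564>Pdm2-RB rest, its highest group. Its neighbour CG8087 read 4.24, 3.48 and 6.41 in c564>+ rest, 22.2, 11.5, 16.01 and 27.0 in c564>nub-RB rest and 321, 450.5 and 206 in c564>Pdm2-RB rest, and was not tested between c564>nub-RB and c564>+.

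CG13135 had the same form. Its rest signals were 1.81, 2.05 and 2.04 in c564>+, 29.0, 29.4, 17.8 and 23.6 in c564>nub-RB and 1571, 3088 and 1301 in c564>Pdm2-RB with 1 probe and 3.67, 7.02 and 6.49, then 25.0, 29.3, 20.8 and 14.4, then 1276, 2374 and 1033 with the other. Both were below the threshold in c564>+ and c564>nub-RB and were not tested. CG10918 read 19.1, 28.1 and 23.4 in c564>+ rest, 94.6, 133, 220.1 and 279 in c564>nub-RB rest and 614, 587 and 257 in c564>Pdm2-RB rest (log2 2.84 ± 0.37 SE for c564>nub-RB, adjusted p = 0.00453, limma). Its call held without c564>nub-RB replicate 1 and was lost without any other single array, at adjusted p = 0.011 to 0.0249, and its second probe was not tested. CG14406 read 20.6, 45.5 and 38.8 against 381, 391.9, 268 and 289.9 (log2 3.31 ± 0.29, adjusted p = 0.000956).

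The other 5 of the 16 rose from a control level above the threshold. Cyp313a1, a cytochrome P450 gene, read 764, 876 and 913 in c564>+ rest, 5849, 10135, 6334 and 5458 in c564>nub-RB rest and 1122, 1353 and 4707 in c564>Pdm2-RB rest, a rise of 7.93-fold in c564>nub-RB (log2 2.99 ± 0.22 SE, adjusted p = 0.000506, limma), and its second, dimmer probe rose by 3.17 (adjusted p = 0.00135). CheA75a, of the CheA family of chemosensory proteins, read 445, 486 and 419.9 against 2514, 2489.7, 3689 and 3915, a rise of 6.86-fold (adjusted p = 0.000429), with 1758, 2681 and 2219 in c564>Pdm2-RB. In both genes the arrays of c564>nub-RB and c564>+ did not overlap.

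CG12998 read 1667, 1766 and 1118.3 in c564>+ rest and 6981, 8029.5, 5744 and 7367 in c564>nub-RB rest (4.69-fold, adjusted p = 0.000908, limma), but 896, 2251 and 1060.3 in c564>Pdm2-RB rest, which overlapped with the control. CG16978 read 1598, 1850.2 and 1635 against 4633, 6755, 5416 and 9084 (3.70-fold, adjusted p = 0.00313). Its call was lost without c564>nub-RB replicate 2 or without any 1 c564>+ array (adjusted p = 0.0116 to 0.0188). The unnamed FBtr0088190, singled out after its values were seen, rose by 1.23 on the log2 scale (adjusted p = 0.00565), a call that did not hold without any 1 of the 7 arrays (0.0106 to 0.0205). Over the 16 called risers the c564>Pdm2-RB rest mean was above that of c564>+ in 14, of which 11 were fixed by the choice, since their c564>+ mean was at or below 130. Both genotypes are set against the same 3 control arrays.

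Falls were fewer and began from high levels. In a model of all 6 groups 12 of the 193 tested members were called higher and 1 lower, where 862 and 274 of all 16491 tested probes were. In that model CG1678, LysP and CG33109 were not called (adjusted p = 0.469, 0.259 and 0.521, limma). Nor were they called on the arrays of the second scan alone (0.0321, 0.0390 and 0.0391). CG1678 (whe), at rank 12, read 269898, 273841 and 285765 in c564>+ rest, 47467, 87053, 73877 and 91242 in c564>nub-RB rest and 123785, 125631 and 149310.0 in c564>Pdm2-RB rest. The c564>nub-RB arrays were the lowest, the c564>Pdm2-RB arrays lay between, and no groups overlapped. On the log2 scale c564>nub-RB was 16.15 ± 0.43 (SD, n = 4) and c564>+ 18.08 ± 0.04 (SD, n = 3), so c564>+ was 3.80-fold higher (log2 difference -1.93 ± 0.23 SE, adjusted p = 0.00294, limma). The call was lost without c564>nub-RB replicate 3 or any 1 c564>+ array (adjusted p = 0.0101 to 0.0162). LysP, a lysozyme gene, was the single named member of the gut list. It read 10097, 7514 and 11215 in c564>+ rest, 1208, 2044, 2017 and 2618 in c564>nub-RB rest and 10539, 10025 and 23118 in c564>Pdm2-RB rest (4.99-fold lower in c564>nub-RB, adjusted p = 0.00294, limma). Its call was lost without c564>+ replicate 1 (0.0172) or 4 (0.0145).

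In gut LysP was close to background in c564>+ and higher in the other genotypes. It read 5.10, 6.15 and 5.97 in c564>+ gut, 310.2, 228 and 17.2 in c564>nub-RB gut and 2711, 1795 and 18.6 in c564>Pdm2-RB gut. Among the 30 other probes of the gut list, 0 of 28 tested were called between c564>nub-RB and c564>+ in rest (limma), with a median difference of -3.78, and the summed levels given above moved with genotype. Their part in the fall of LysP was not tested. CG33109 read 19460.4, 14335 and 22118 in c564>+ rest and 6246, 6977, 5599 and 8009 in c564>nub-RB rest with 1 probe (log2 -1.46, adjusted p = 0.00399), and 542, 664 and 492 against 701, 950.0, 996 and 854 with the other (log2 0.63, adjusted p = 0.0456). The probes disagreed in direction, and the call of the first was lost when any 1 of 5 arrays was left out (c564>nub-RB replicates 1, 2 and 3, c564>+ replicates 1 and 4, adjusted p = 0.0111 to 0.0235).

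The remaining 3 called falls were of unnamed probes, given after their values were seen. FBtr0080464 read 18209, 19590.5 and 20837 in c564>+ rest, 413, 784, 608 and 769.9 in c564>nub-RB rest and 622, 307 and 827 in c564>Pdm2-RB rest. Both overexpressing genotypes were far below every control array, by 31.3-fold in c564>nub-RB (log2 -4.97 ± 0.23 SE, adjusted p = 5.54e-05, limma). FBtr0077220 read 54742, 58124 and 70236 against 8765, 12558, 10619 and 15788 (log2 -2.38, adjusted p = 0.000956). TC241875 read 9043, 12395 and 21540.3 against 1175, 1952, 2231 and 3141 (log2 -2.74, adjusted p = 0.00622), and kept its call without c564>nub-RB replicate 1 only (0.0117 to 0.0225 without the others).

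**Figure D5:**
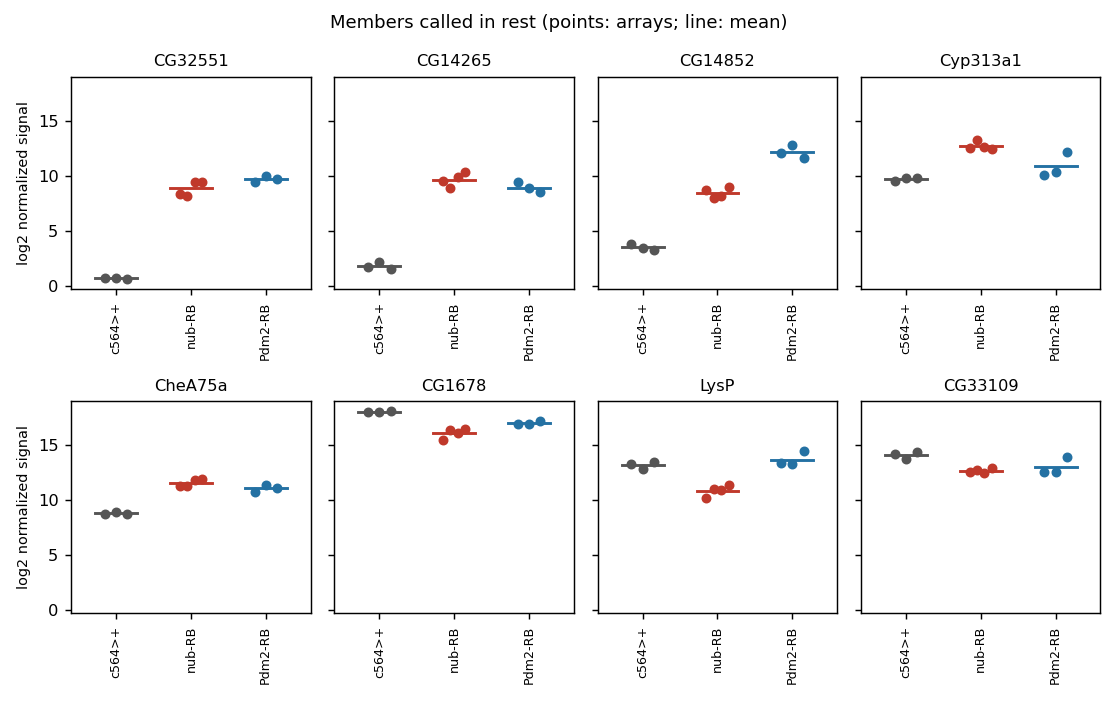
Log2 normalized rest signal of 8 called genes on every array (points) with the mean of each genotype (line). CG32551, CG14265, CG14852, Cyp313a1 and CheA75a rose and CG1678, LysP and CG33109 fell in c564>nub-RB (red) relative to c564>+ (grey), with c564>Pdm2-RB (blue) beside them. CG14852 is highest in c564>Pdm2-RB, and LysP is near the control level there.

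Hemocyte genes, which the rule bars by name and of which no named probe ranked high enough for the 200, moved with genotype in the same arrays. Their 15 named probes summed to 7361 to 14160 in c564>+ rest and 43366 to 68066 in c564>nub-RB rest, with 11 of 14 tested probes called higher, where 3.40% of all tested probes were. These genes are named in tables drawn from the same samples, and their part in the rises above was not tested. No probe was named for the lists of yolk proteins, neurons, glia and oenocytes. The lists for the female reproductive tract, cuticle, trachea and heart, photoreceptors and male-specific genes had 0 named members among the 200. In these, the probes called higher in c564>nub-RB rest were 0 of 12 tested for the reproductive tract, 2 of 6 for cuticle, 1 of 2 for trachea and heart and 0 of 4 for photoreceptors, where 3.40% of all tested probes were. In each of them 0 were called lower, and no male-specific probe was above the threshold. Named probes lean towards rises in this comparison, as given above. The 153 probes of the 200 without a symbol could not be placed on any list.

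In gut, 88 of the 200 probes were above the threshold in c564>nub-RB or c564>+, and 0 were called between these genotypes (limma), where 0.497% of all 16698 tested probes were called in either direction. At an unadjusted limma p below 0.05 there were 8, a count for which the share of all tested probes was not computed. The largest differences among these were of CG33109 (log2 4.93, adjusted p = 0.205), LysP (4.22, adjusted p = 0.127) and CheA75a (3.42, adjusted p = 0.0793). CheA75a read 125, 264 and 163 in c564>nub-RB gut and 21.2, 5.75 and 35.8 in c564>+ gut, without overlap. This order held for 14.3% of all tested probes in gut. CheA75a and LysP had passed the threshold through c564>nub-RB gut alone, which favors it. The same was so for 18 of the 88, while 56 were above the threshold in both genotypes. Without c564>nub-RB gut replicate 1, the probes of Ilp8 were called higher (log2 4.22 and 4.0, adjusted p = 0.00401 and 0.00726), and without replicate 4 LysP was (5.54, adjusted p = 0.00451).

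Whether the tissue difference itself changed with genotype was tested as an interaction over the 13 c564>nub-RB and c564>+ arrays. Of 193 tested probes 3 were called (limma), where 0.824% of all 17952 tested probes were, and 44 had an unadjusted limma p below 0.05. The share of all tested probes below that unadjusted p was not computed, so the 44 have no baseline. The rest minus gut difference of CG14852 was larger in c564>nub-RB by 4.37 ± 0.51 SE on the log2 scale (adjusted p = 0.0024). Its gut signals were 12.2, 11.9 and 8.03 in c564>+ and 28.4, 12.4 and 11.5 in c564>nub-RB, which differ little beside the rest signals given above. The call of CG14852 was lost in a model of all 6 groups. For FBtr0080464 the change was -6.44 ± 0.76 (adjusted p = 0.0026), with gut signals of 8.61, 8.22 and 6.80 and 62.2, 20.2 and 8.18. The call was lost without c564>+ rest replicate 1 or gut replicate 4 (adjusted p between 0.01003 and 0.01045).

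The third, FBtr0086102, was higher in c564>nub-RB than in c564>+ in rest (15704, 25282, 20695 and 22273 against 12513, 11132 and 13951) and lower in gut (1204, 1039 and 752 against 2535, 1723 and 2622), with groups that did not overlap in either tissue. Neither difference was called alone (adjusted p = 0.0368 in rest and 0.0865 in gut, limma), and the interaction was 1.93 ± 0.32 SE (adjusted p = 0.00976). The second probe of this transcript gave 1.64 (adjusted p = 0.0446, not called). The call was lost when any 1 of 10 arrays was left out (adjusted p = 0.0163 to 0.0325) and kept without c564>nub-RB rest replicate 1, c564>nub-RB gut replicate 1 or c564>+ gut replicate 3. LysP had the largest change of all 200, -6.54 (adjusted p = 0.0119), which was not called.

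Probes of the same gene or transcript mostly went together. In 27 of the 30 units with several probes among the 200, all probes had the same sign of the rest difference between c564>nub-RB and c564>+, and the median spread between probes of a unit was 0.14 on the log2 scale. The largest spread, 2.09, was that of CG33109. Further named genes with a pair of probes were Strn-Mlck, CG32551, Cyp313a1, CG2022 (plh), CG13135, Ilp8, CG10918, CG13026 and Hsc70-1. CG2022 read 343, 1607 and 754 in c564>+ rest and 1717, 3848, 1769 and 2999.7 in c564>nub-RB rest with 1 probe (log2 1.70, adjusted p = 0.0766, limma), and CG13026 differed by 1.02 and 1.55 (adjusted p = 0.141 and 0.0408). Such probes share a transcript and are not independent measurements of a condition.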

How the data were processed

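RNA of gut and rest was hybridized to 19 one-color Agilent arrays of 43602 spots each. The authors deposited scanner output of Agilent Feature Extraction 10.7.3.1, from which the processed signal was used as an intensity, and a table of the same arrays, whose deposited intensity values are quantile-normalized and linear. The authors' supplementary fold changes and p-values were not used as results, and only gene names were taken from those tables. The 200 probes were chosen from the authors' table and everything else was computed from the scanner files: 46 to 87 flagged spots per array were left out, spots of a probe were averaged, and arrays were quantile-normalized with limma 3.58.1 in R 4.3.3 and put on the log2 scale. Of these values 99.9% were within 0.01 log2 of the authors' table. Probes with a mean signal above 130 in at least 1 compared group were tested with lmFit and eBayes, with Benjamini-Hochberg adjustment over all tested probes. Scripts were tested on simulated data. Python 3.11.15, pandas 2.3.3, numpy 2.4.6 and matplotlib 3.10.9 made tables and figures. Pools of flies were the replicates, and the number of arrays limits the precision.

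The members and gene lists were chosen with earlier results of these data known. Named genes were the 10 highest ranks, the 3 just inside and the 3 just outside the limit, called members with the largest rises and falls (up to 10 each way in rest and 5 in gut and in the interaction), the 5 smallest tissue differences per genotype, members on tissue lists (up to 6 per list), genes with 2 or more probes, and nub and pdm2. Other named genes were added after their values were seen. Transcript identifiers without a symbol in the tables used here stay as they are. Arrays of c564>nub-RB and c564>Pdm2-RB are set against the same c564>+ arrays. Samples were not treated as paired by replicate number. Between c564>nub-RB and c564>+, deviations of same-numbered arrays correlated at 0.04, 0.23 and 0.04 in rest and at -0.46, -0.39 and -0.38 in gut. Between rest and gut they correlated at 0.03, -0.05 and 0.17 in c564>+ and at -0.06, 0.17 and 0.10 in c564>nub-RB. With so few arrays per group these values cannot show whether the numbers pair the samples. Alternatives covered scaling, background correction, filters, the test, scan, slide, replicate numbers and each array left out.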

Additional observations from a re-analysis of the deposited data

Results flagged for a closer look

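In 4 of the 200 probes, 1 of the 4 c564>nub-RB rest arrays stood apart from the other 3 by Dixon's criterion, which chance meets in about 1 of 20 groups. CG4962 was high on replicate 2, CG13026 (1 of its probes) on replicate 2 and FBtr0072133 on replicate 3, and FBtr0089786 was low on replicate 1.

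The rest minus gut difference was not the same in c564>nub-RB and c564>+ for 3 probes by the interaction test (limma, adjusted p at 1%). The change was 4.37 on the log2 scale for CG14852, -6.44 for FBtr0080464 and 1.93 for FBtr0086102. CG14852 kept this call without any 1 of the 13 arrays, FBtr0080464 in 11 of 13 such fits and FBtr0086102 in 3 of 13. With all 6 groups in 1 model CG14852 and FBtr0086102 were not called, and FBtr0080464 was (adjusted p = 0.00168, limma).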

How the results depend on the processing

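None of the 27 results tabulated for single probes changed sign under an alternative. Some medians over the probes did: in rest from 0.23 to -0.04 for 200 probes chosen with a rest mean above 1000, in gut from 0.72 to -0.10 without c564>+ gut replicate 3, and for the interaction from -0.27 to 0.14 with 75th percentile scaling, 0.06 with normexp, 0.20 without c564>nub-RB gut replicate 3a and 0.17 without c564>+ gut replicate 3. The interaction calls went from 2 higher and 1 lower to 1 higher and 5 lower without c564>nub-RB gut replicate 4. Over all 17952 tested probes they went from 100 higher and 48 lower to 20 higher and 26 lower. Of the 22 probes called between c564>nub-RB and c564>+ in rest, the count became 13 with all 6 groups in 1 model (11 of them among the 22). It was 7 with the methods' t-test (6 higher, 1 lower, with CG1678, LysP and CG33109 not called) and 43 at a false discovery rate of 5%. With the arrays of scan 2 only, an alternative chosen after seeing the data, it was 11. Of all 16491 tested probes these fits called 1136, 86, 2254 and 106, against 710 in the main fit. In the model of all 6 groups the share called among the 193 tested members was thus close to that of all tested probes. Leaving out each array gave 15 to 22, where 213 to 545 of all tested probes were called. The count stayed between 20 and 28 under the planned fits of the same 200 probes not named in this paragraph. Those fits called 386 to 1534 of all tested probes. In the main fit the count was 15 for 200 probes chosen with a rest mean above 1000. With replicate number as a block, 9 were called in rest, 0 in gut, 122 and 114 for rest against gut in c564>+ and c564>nub-RB, and 1 for the interaction. Of all tested probes the same fits called 80 in rest, 0 in gut and 18 for the interaction. For rest against gut they called 5970 and 3122 higher. Whether the numbers pair the samples is not known. The gut count stayed at 0 in all planned fits except when 1 array was left out (0 to 2, where 6 to 46 of all 16698 tested probes were called).

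Rest against gut gave 105 to 169 calls in c564>+ and 124 to 172 in c564>nub-RB without single arrays, and 62 in c564>nub-RB with scan 1 only. The 3 interaction calls became 11 with normexp background correction, 6 with slide as a random block and 16 at a false discovery rate of 5%. Without single arrays there were 1 to 10 (10 without c564>nub-RB gut replicate 1). Of all 17952 tested probes 148 were called in the main fit, and 308, 349 and 1494 under those alternatives. Without single arrays it was 23 to 692 (692 without c564>nub-RB gut replicate 1). The cause of these changes was not tested. CG14852, both probes of CG32551 and CG14265 were called in rest under all alternatives run. Slide as a random block was not run for rest against gut, where the correlation could not be estimated. In gut 112 of the 200 probes were below the threshold, which limits what could be tested there.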
